A study of Mus musculus with 6 samples.

Results

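The 10 genes described here are Nfe2l2, which encodes the transcription factor NRF2, and 9 antioxidant genes that NRF2 is known to activate: Hmox1, Slc7a11, Gclc, Gclm, Gsr, Txnrd1, Srxn1, Nqo1 and Osgin1. They were listed by symbol out of 57180 gene identifiers, and the list was chosen by a measured value, because Hmox1 differed about 4-fold between the 2 cardiac libraries. All 10 passed the filter on low counts. Their values in the cardiac pair are therefore a description and carry no test.

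Polyadenylated RNA was read from mouse fibroblasts in culture, in 6 libraries, 1 for each group. The groups were cardiac fibroblasts with Ad-Cre, cardiac fibroblasts with Ad-GFP, lung fibroblasts with Ad-Cre, lung fibroblasts with Ad-GFP, tail tip fibroblasts with Ad-Cre and tail tip fibroblasts with Ad-GFP. Ad-Cre is an adenovirus that carries Cre recombinase and stands for GATA4 knockout in the design text, and Ad-GFP carries green fluorescent protein and is their control. All 6 groups carry the genotype label WT, so the labels do not name a floxed allele for Cre to act on, and all were taken 48 h after transduction in DMEM with 10% fetal bovine serum. For strain, age and the number of animals behind each culture, the sources used here give nothing. Gata4, the targeted gene, was at 149 CPM with Ad-Cre and 147 CPM with Ad-GFP in cardiac cells, at 19.2 and 14.7 CPM in lung cells, and at 2 reads and 1 read in tail tip cells. CPM is a count per megaread, after TMM scaling of the library size, a correction for differences in library composition.

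Total counts lay between 26170316 and 33779069 per library, so that 3 counts, the limit taken for 0 reads, amount to 0.0906 to 0.117 CPM. All 12 fibroblast markers examined were at 1 CPM or more in every library. A list of 14 macrophage and leukocyte markers summed to 646 CPM with Ad-Cre and 1076.5 CPM with Ad-GFP in cardiac cells, to 20.7 and 30.3 CPM in lung cells, and to 4625 and 5452 CPM in tail tip cells. The cardiac libraries stood apart from each other: 287 genes had 0 reads in one of them and at least 20 in the other, against 2 genes in the lung pair and 1 in the tail tip pair. A list of 8 epithelial markers summed to 120 CPM in the cardiac Ad-Cre library and 14.1 CPM in the cardiac Ad-GFP library.

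NRF2 is held at a low level by KEAP1, a sensor protein that delivers it to degradation. Oxidants and electrophiles modify KEAP1, and NRF2 then enters the nucleus, pairs with a small MAF protein and binds antioxidant response elements near its target genes. BACH1, a heme-sensing repressor, occupies many of the same elements, and Hmox1 is one of its best known targets. NRF2 is regulated mainly as a protein, so the level of Nfe2l2 RNA does not report its activity.

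Nfe2l2 RNA varied least among the 10 genes. Its level was 111 CPM with Ad-Cre and 136 CPM with Ad-GFP in cardiac cells, 136 and 143 CPM in lung cells, and 184 and 191 CPM in tail tip cells. The tail tip libraries were the highest and did not overlap with the others. The highest library was 1.72 times the lowest, whereas Slc7a11 had the widest span, at 8.32 times. Of the 10, Nfe2l2 had the fourth highest level per length of exon, with a mean of 39.6 CPM per kilobase over the 6 libraries.

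Hmox1 encodes heme oxygenase-1, which breaks heme down to biliverdin, carbon monoxide and iron. It was at 238 CPM with Ad-Cre and 922 CPM with Ad-GFP in cardiac cells, from 7275 and 29988 reads. In lung cells it was at 209 CPM with Ad-Cre and 213 CPM with Ad-GFP, and in tail tip cells at 224 CPM with Ad-Cre and 258 CPM with Ad-GFP. Of the 6 libraries 5 therefore lay close together, and the cardiac Ad-GFP library alone was high. The ratio of Ad-Cre to Ad-GFP was 0.258 in cardiac cells (95% interval 0.252 to 0.265), 0.984 in lung cells (0.949 to 1.02) and 0.869 in tail tip cells (0.842 to 0.897). These intervals are exact for counting error only, since each side of a ratio is 1 library. In bulk RNA, fewer cells of a type and less RNA per cell cannot be told apart. Per length of exon Hmox1 was the highest of the 10 genes in each origin, with a mean of 196 CPM per kilobase over the 6 libraries.

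Macrophages are a known site of Hmox1 expression, and markers of several cell types differed in the cardiac pair along with it. Of the 14 macrophage and leukocyte markers, 13 were lower with Ad-Cre in cardiac cells, and the sum of the list had a ratio of 0.600. Lyz2, the highest of them, was at 481 CPM with Ad-Cre and 815 CPM with Ad-GFP there. Single markers differed from the sum: C1qc was at 8.02 and 24.9 CPM, and Fcer1g at 8.28 and 9.38 CPM. Other sums there had ratios of Ad-Cre to Ad-GFP of 0.650 for 5 cardiac-origin markers and 0.718 for 12 fibroblast markers. The ratio was 0.719 for 5 lung-origin markers and 0.766 for 6 smooth muscle and pericyte markers. It was 1.31 for 6 endothelial, 2.16 for 6 mesothelial (2 of them lower) and 8.49 for 8 epithelial markers. At sums near 0 it was 26.4 for 6 tail tip-origin markers (4.06 and 0.154 CPM) and 1.30 for 6 erythroid markers (0.360 and 0.277 CPM). In tail tip cells 13 of the 14 macrophage and leukocyte markers were lower and the sum had a ratio of 0.848. In lung cells 8 were lower and 4 higher, and the sum had a ratio of 0.684. Of the list, C1qa and C1qb had 0 reads in both lung libraries. Cd14 had 209 reads with Ad-Cre and 349 with Ad-GFP there, and Mrc1 had 139 and 310. The tail tip libraries had the highest sums of this list, and the cardiac Ad-GFP library had the highest Hmox1. The part of any of these cells in the cardiac values was not tested.

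Slc7a11 encodes the cystine transporter subunit xCT, which brings in the cysteine that limits glutathione synthesis. Its level was 11.0 CPM with Ad-Cre and 91.6 CPM with Ad-GFP in cardiac cells, 20.3 and 29.9 CPM in lung cells, and 13.9 and 13.4 CPM in tail tip cells. The cardiac Ad-GFP library was again the highest, and the cardiac Ad-Cre library was the lowest of all 6. The ratio of Ad-Cre to Ad-GFP was 0.120 in cardiac cells (95% interval 0.107 to 0.135), the lowest of the 10 genes there. It was 0.677 in lung cells (0.606 to 0.756) and 1.04 in tail tip cells (0.909 to 1.19), where the interval includes 1.

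Gclc and Gclm encode the catalytic and the modifier subunit of glutamate-cysteine ligase, the enzyme that starts glutathione synthesis. Gclc was at 69.7 CPM with Ad-Cre and 141 CPM with Ad-GFP in cardiac cells, 107 and 104 CPM in lung cells, and 34.0 and 41.0 CPM in tail tip cells. Gclm was at 78.6 CPM with Ad-Cre and 282 CPM with Ad-GFP in cardiac cells, 156 and 131 CPM in lung cells, and 41.6 and 49.6 CPM in tail tip cells. For both genes the cardiac Ad-GFP library was the highest, the tail tip libraries were the lowest, and the lung libraries lay between the 2 cardiac ones. The 2 subunits differed in the size of the cardiac ratio, which was 0.493 for Gclc (95% interval 0.468 to 0.519) and 0.278 for Gclm (0.266 to 0.291). In lung cells Gclm ran the other way, with a ratio of 1.19 (1.14 to 1.24), while Gclc had 1.02 (0.971 to 1.08). Exons of Gclm overlap an antisense gene, Gm17494, which had 39 to 121 reads per library, and whether counting used strand is not given in the sources used here.

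Gsr encodes glutathione reductase, which returns oxidised glutathione to its reduced form. It was at 49.5 CPM with Ad-Cre and 60.4 CPM with Ad-GFP in cardiac cells, 42.0 and 50.4 CPM in lung cells, and 21.8 and 27.5 CPM in tail tip cells. The Ad-Cre library was the lower one in each origin, by a similar ratio of 0.820 in cardiac cells (95% interval 0.766 to 0.877), 0.834 in lung cells (0.770 to 0.903) and 0.792 in tail tip cells (0.717 to 0.875).

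The promoters of Slc7a11 and Gclm are shown because these genes had 2 of the 3 lowest cardiac ratios. Each sequence is the 250 bases before the start site, in RefSeq's GRCm38.p6 assembly, written in the direction of the gene. For Slc7a11 (chr3:50443614-50443863, minus strand) the capitals mark a match to TGATGNAAN, the amino acid response element bound by ATF4, and a match on the opposite strand. For Gclm (chr3:122245307-122245556, plus strand) they mark a match on the opposite strand to TGACNNNGC, the core of the antioxidant response element.
Slc7a11: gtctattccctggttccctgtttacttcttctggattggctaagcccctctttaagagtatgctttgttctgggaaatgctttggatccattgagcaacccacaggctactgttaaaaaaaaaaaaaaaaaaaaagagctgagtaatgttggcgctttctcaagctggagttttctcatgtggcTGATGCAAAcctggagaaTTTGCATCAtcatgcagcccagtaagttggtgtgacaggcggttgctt
Gclm: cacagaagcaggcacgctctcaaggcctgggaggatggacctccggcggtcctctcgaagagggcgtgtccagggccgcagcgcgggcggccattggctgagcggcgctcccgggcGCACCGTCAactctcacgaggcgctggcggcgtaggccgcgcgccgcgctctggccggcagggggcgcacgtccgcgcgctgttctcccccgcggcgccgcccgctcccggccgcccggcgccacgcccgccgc
Both strands were searched. TGATGNAAN matched in 3.44% of all 32851 such windows and TGACNNNGC in 10.2%. The matches in Slc7a11 lie 66 to 58 and 48 to 40 bases before its start site, and the match in Gclm lies 134 to 126 bases before its own. These matches describe the letters and are not shown to be sites of binding.

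Txnrd1 encodes the cytosolic thioredoxin reductase, and Srxn1 encodes sulfiredoxin, which repairs overoxidised peroxiredoxins. Txnrd1 was at 398 CPM with Ad-Cre and 671 CPM with Ad-GFP in cardiac cells, 695 and 759 CPM in lung cells, and 215 and 248 CPM in tail tip cells. Unlike Hmox1, it was highest in the lung libraries. Srxn1 was at 126 CPM with Ad-Cre and 279 CPM with Ad-GFP in cardiac cells, 70.3 and 87.5 CPM in lung cells, and 79.0 and 88.5 CPM in tail tip cells. Both cardiac libraries were above the other 4. The cardiac ratio of Ad-Cre to Ad-GFP was 0.593 for Txnrd1 (95% interval 0.580 to 0.606) and 0.453 for Srxn1 (0.437 to 0.471). In the other origins both genes were slightly lower with Ad-Cre, with ratios of 0.915 for Txnrd1 and 0.803 for Srxn1 in lung cells, and of 0.867 for Txnrd1 and 0.893 for Srxn1 in tail tip cells.

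Nqo1 encodes a quinone reductase that is widely used as a readout of NRF2. It was at 29.3 CPM with Ad-Cre and 64.9 CPM with Ad-GFP in cardiac cells, 20.5 and 30.1 CPM in lung cells, and 24.3 and 24.5 CPM in tail tip cells. The cardiac Ad-GFP library was at more than 2 times the level of any other. The ratio was 0.452 in cardiac cells (95% interval 0.418 to 0.489), 0.681 in lung cells (0.610 to 0.760) and 0.990 in tail tip cells (0.896 to 1.09).

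Osgin1 encodes an oxidative stress-induced growth inhibitor and was the exception in the cardiac pair. It was at 15.3 CPM with Ad-Cre and 11.6 CPM with Ad-GFP in cardiac cells, from 468 and 376 reads. It was at 3.08 and 2.23 CPM in lung cells, from 79 and 65 reads, and at 6.83 and 7.90 CPM in tail tip cells. The cardiac libraries were the highest and the lung libraries the lowest. The ratio was 1.33 in cardiac cells (95% interval 1.16 to 1.52), 1.38 in lung cells (0.982 to 1.95) and 0.865 in tail tip cells (0.719 to 1.04).

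The promoters of Srxn1 (chr2:152105274-152105523, plus strand) and Osgin1 (chr8:119436897-119437146, plus strand) are shown because they hold the same antioxidant element while the genes ran in opposite directions in the cardiac pair. The capitals mark TGAGTCAGC, or its reverse complement in Osgin1, and a second TGAGTCA in Srxn1, which is the AP-1 element and is contained in the longer motif.
Srxn1: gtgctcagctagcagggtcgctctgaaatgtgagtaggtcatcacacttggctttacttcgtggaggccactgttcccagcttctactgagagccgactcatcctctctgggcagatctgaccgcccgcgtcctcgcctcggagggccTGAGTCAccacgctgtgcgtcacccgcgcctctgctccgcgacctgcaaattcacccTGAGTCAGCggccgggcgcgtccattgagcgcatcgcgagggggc
Osgin1: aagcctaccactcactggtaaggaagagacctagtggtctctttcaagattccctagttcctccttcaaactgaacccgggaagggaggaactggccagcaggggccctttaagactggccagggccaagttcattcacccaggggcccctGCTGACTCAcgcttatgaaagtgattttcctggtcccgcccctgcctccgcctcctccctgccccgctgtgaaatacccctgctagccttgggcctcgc
TGAGTCAGC lies 45 to 37 bases before the start site in Srxn1 and 99 to 91 bases before it in Osgin1. It matched in 0.347% of the windows, and TGAGTCA alone in 4.46%. Promoters were found for 7 of the 10 genes. None was found for Hmox1, Gclc and Gsr, so these were not searched. Among the promoters searched but not printed here, TGACNNNGC matched in Nfe2l2 and in 1 of the 3 start-site windows of Txnrd1. Nqo1 held none of the motifs searched. The variant TGACTCAGC, the E-box CACGTG, the heat shock element and the cAMP element TGACGTCA matched in none of the 7.

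**Figure D1:**
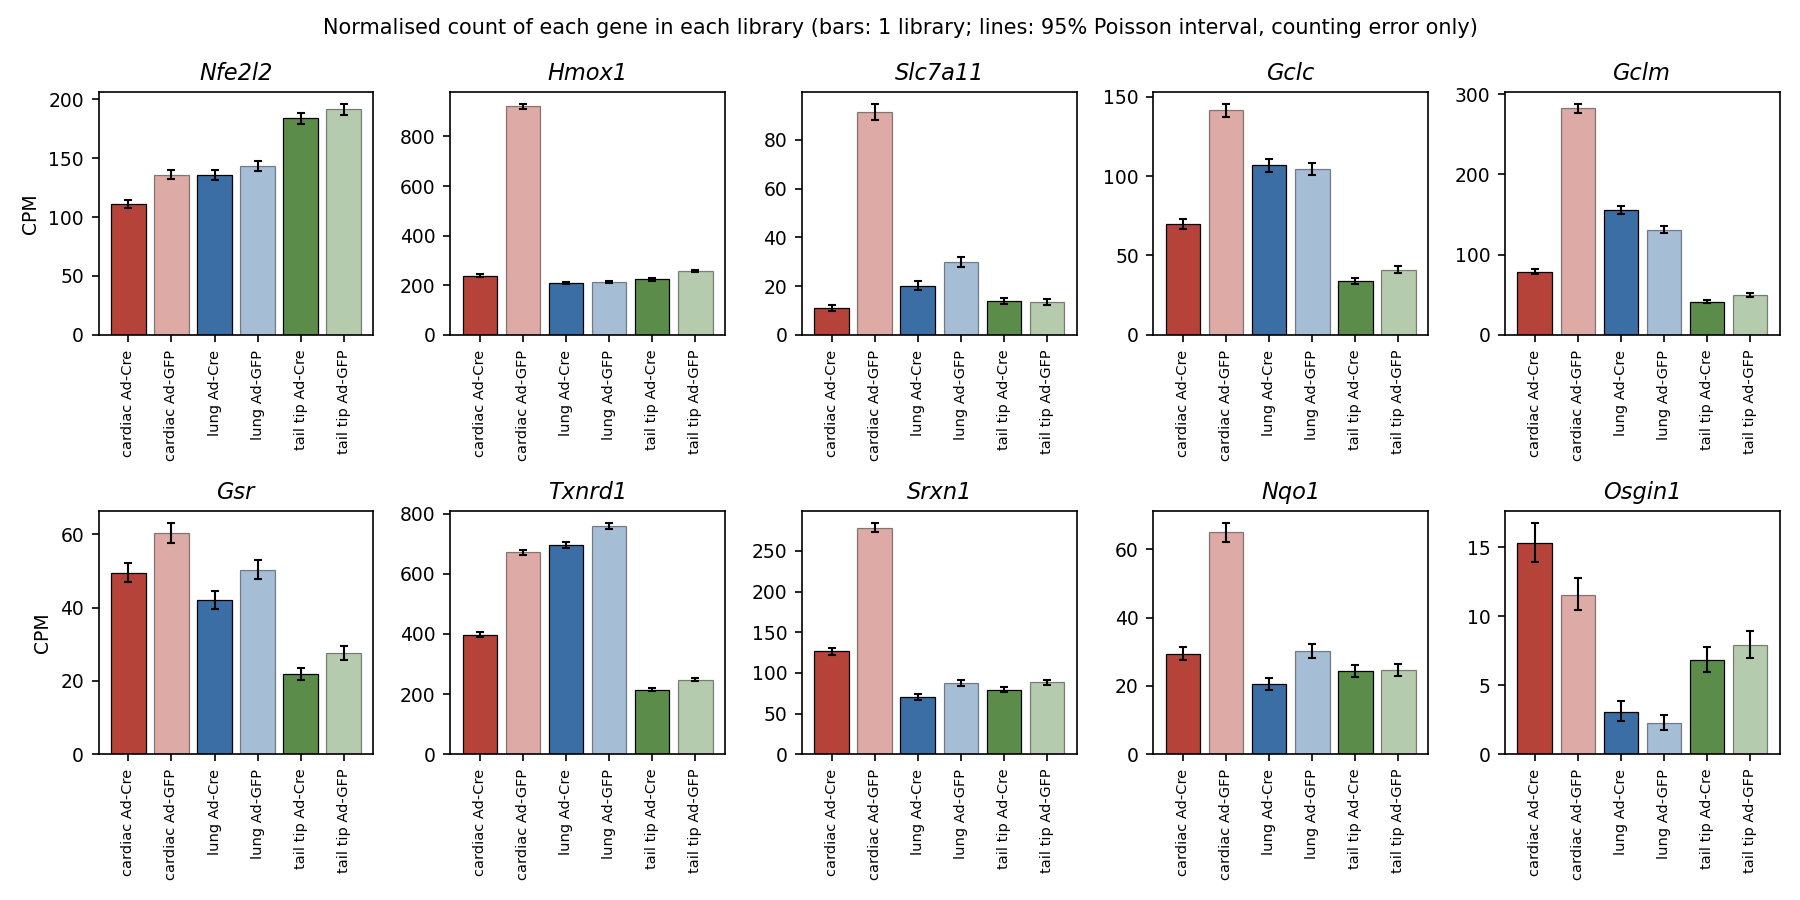
Levels of the 10 genes in the 6 libraries, in CPM on a linear axis from 0, with Ad-Cre (dark) left of Ad-GFP (light) in each origin and lines for the 95% Poisson interval of the reads. The cardiac Ad-GFP bar is the highest in 7 panels, with 922 CPM for Hmox1, whereas Nfe2l2 is highest in tail tip cells, Txnrd1 in lung cells and Osgin1 in the cardiac Ad-Cre library.

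Within the cardiac pair, 6 of the 10 genes were at least 2-fold lower in the Ad-Cre library and 0 were at least 2-fold higher. Over all 18143 genes tested, 9.07% were at least 2-fold lower, 11.3% at least 2-fold higher and 20.3% either. Since the list was drawn up from a value of this pair, nothing is read from that count. The 6 genes were Slc7a11, Hmox1, Gclm, Nqo1, Srxn1 and Gclc. Gclc lay just inside the 2-fold line at a log2 ratio of -1.02, and Txnrd1 just outside it at -0.75. Gsr and Nfe2l2 were at -0.29 each. The median log2 ratio was -1.08 for the 10 genes and 0 for all genes. Slc7a11 lay among the lowest 0.821% of all genes in this pair, Hmox1 among the lowest 3.20% and Gclm among the lowest 3.60%. The median and these places describe the pair that chose the list, so nothing is read from them either.

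In the lung and the tail tip pair, which the choice of genes did not use, 0 of the 10 genes differed 2-fold in either direction. Over all genes 7.69% did so in the lung pair (2.82% lower and 4.87% higher with Ad-Cre) and 3.1% in the tail tip pair (1.58% lower and 1.53% higher). The log2 ratios of the 10 genes ran between -0.56 (Slc7a11) and 0.45 (Osgin1) in lung cells and between -0.33 (Gsr) and 0.06 (Slc7a11) in tail tip cells. Their median was -0.10 in lung cells, where that of all genes was 0.03, and -0.20 in tail tip cells, where that of all genes was 0.01. At any size of difference, Nfe2l2, Hmox1, Gsr, Txnrd1, Srxn1 and Nqo1 were lower with Ad-Cre in both the lung and the tail tip pair. These are 6 of the 10 genes, against 18.7% of all genes. The ratio intervals of Hmox1 in lung cells (0.949 to 1.02) and of Nqo1 in tail tip cells (0.896 to 1.09) include 1. Nothing is read from that count. Each pair compares 1 library with 1 library, so these values have no replicate check.

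**Figure D2:**
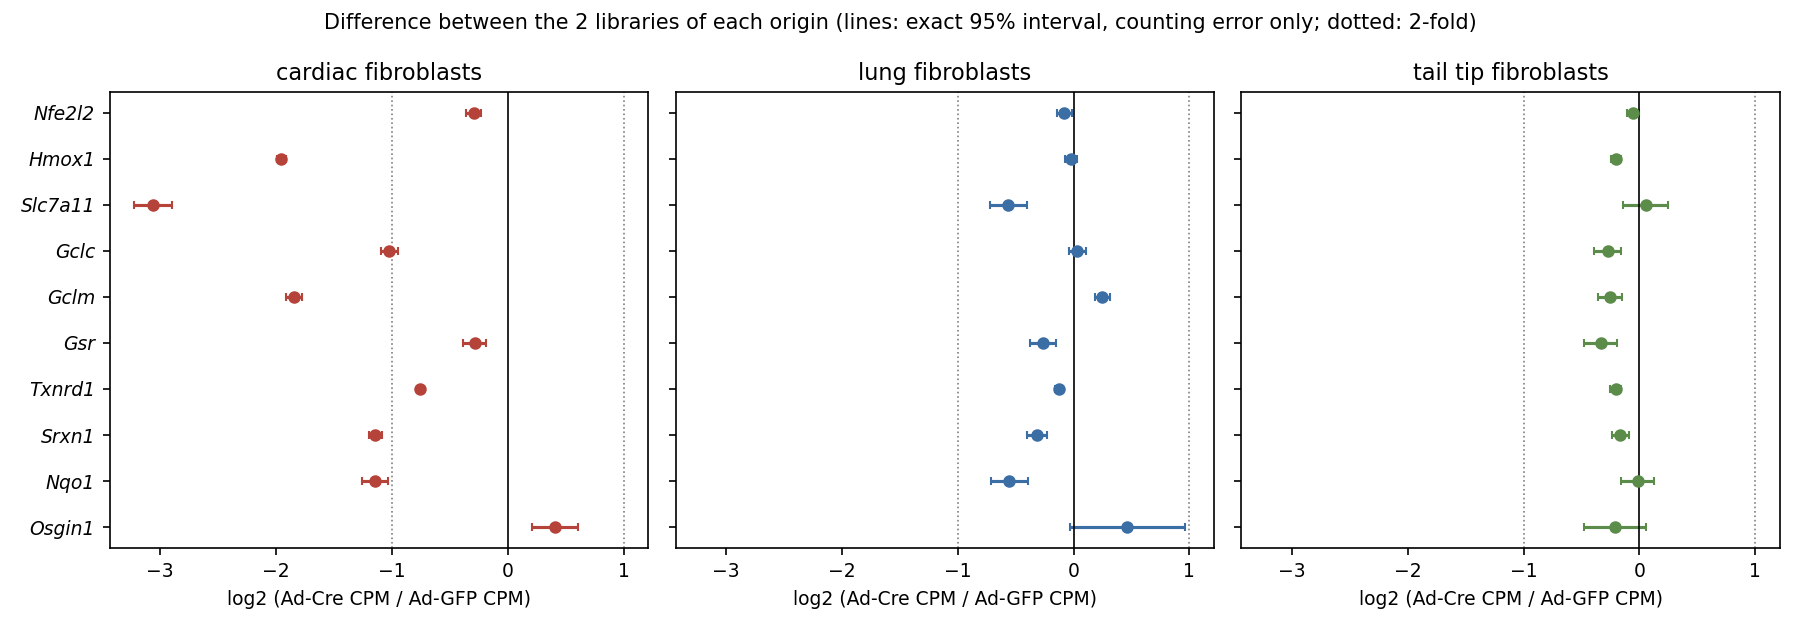
Log2 ratio of Ad-Cre to Ad-GFP for each gene in the cardiac, lung and tail tip pair, with exact 95% intervals for counting error and dotted lines at 2-fold. The cardiac points spread between -3.05 for Slc7a11 and 0.40 for Osgin1, and no point passes a dotted line in the lung or tail tip panel.

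Ad-Cre was then set against Ad-GFP over the 3 origins together, by edgeR's quasi-likelihood test with a term for origin. None of the 10 genes passed an adjusted p of 0.05, and 0 of all 18143 genes did (0.0%). The smallest adjusted p of any gene was 1.00. An unadjusted p under 0.05 was found for 367 genes, 3 of them from the list (Srxn1, Nqo1 and Gsr), and DESeq2 called 4 genes, 0 of them from the list. The estimated log2 differences were -1.15 ± 0.56 for Slc7a11, -0.71 ± 0.36 for Hmox1, -0.57 ± 0.22 for Nqo1, -0.54 ± 0.20 for Srxn1 and -0.29 ± 0.12 for Gsr (± standard error). These estimates contain the cardiac pair, whose values chose the list, and all but that of Gsr were much smaller without a cardiac library. Without cardiac Ad-Cre and without cardiac Ad-GFP they were -0.28 and -0.25 for Slc7a11, -0.13 and -0.11 for Hmox1, -0.30 and -0.28 for Nqo1 and -0.26 and -0.23 for Srxn1, all at an adjusted p of 1.00 (edgeR). For Gsr they were -0.32 and -0.29. Without either tail tip library, which gives the cardiac pair more weight, Hmox1 had -0.99 and Slc7a11 -1.81, and both came under the threshold, from which nothing is read here. Over the lung and tail tip pairs alone, edgeR called 3 of 17270 genes (0.0174%) and 0 of the 10, with 412 genes at an unadjusted p under 0.05, among them Gsr from the list. DESeq2 called 1 gene there and 0 of the 10. Hmox1 had a log2 difference of -0.11 ± 0.13 in those 4 libraries and Gsr one of -0.30 ± 0.14.

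The origins were compared in the same model over both viruses, which asks where these genes stand highest. Against lung cells, 3 of the 10 genes passed as higher in cardiac cells (Osgin1, Srxn1 and Nqo1), where 20.8% of all genes did. Against tail tip cells, 7 of the 10 passed as higher in cardiac cells, Gclc, Gclm, Gsr and Txnrd1 among them. The share of all genes there was 15.5%. Several of these calls depended on single libraries, as given below. Macrophage and leukocyte marker sums also differed between origins, and their part in these differences was not tested. Both comparisons with cardiac cells contain the pair whose Hmox1 values chose the list, so nothing is read from their counts. Each origin holds 2 libraries that differ in virus, so the spread is that of the residuals among the 6 libraries. Leaving out a library leaves its origin with 1, which is then assumed to vary like the 2 remaining pairs.

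Between cardiac and lung fibroblasts, 3 of the 10 genes passed and all 3 were higher in cardiac cells, whereas 38.4% of all genes passed, 20.8% of them higher and 17.6% lower as shares of all genes tested. Osgin1 was higher by 2.34 ± 0.29 on the log2 scale (adjusted p 0.0010, edgeR), Srxn1 by 1.29 ± 0.25 (0.0064) and Nqo1 by 0.84 ± 0.26 (0.041). Osgin1 and Srxn1 passed whichever library was left out, with a range of 2.13 to 2.50 for Osgin1 and 0.77 to 1.71 for Srxn1. Nqo1 did not pass in a model of origin alone, without the term for virus. It also did not pass without the cardiac Ad-GFP library (0.33), without lung Ad-Cre (0.83) or without lung Ad-GFP (0.79). Hmox1 did not pass, at 1.24 ± 0.44 (adjusted p 0.061), and its difference was 0.19 without the cardiac Ad-GFP library. For Hmox1 the difference was 2.08 without cardiac Ad-Cre and 1.12 without either tail tip library. These fits keep the cardiac Ad-GFP library, whose Hmox1 value was part of the choice, so nothing is read from them. The subunit genes Gclc (-0.07 ± 0.25, adjusted p 0.85) and Gclm (0.13 ± 0.44, 0.84) did not pass, nor did Slc7a11 (0.65 ± 0.65, 0.46), Gsr (0.25 ± 0.15, 0.22), Txnrd1 (-0.48 ± 0.19, 0.083) and Nfe2l2 (-0.18 ± 0.15, 0.36).

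The direction of several of these differences depended on which cardiac library was used. The difference from lung cells was 1.76 for Slc7a11 without cardiac Ad-Cre and -1.08 without cardiac Ad-GFP. For Gclm it was 0.98 without cardiac Ad-Cre and -0.91 without cardiac Ad-GFP. Gclc had -0.58 and Txnrd1 -0.82 without cardiac Ad-GFP, and Txnrd1 had -0.70 without lung Ad-GFP. All of these came under the threshold, but in the fits without a cardiac library the spread comes from the lung and tail tip pairs alone and carries nothing of the difference between the cardiac libraries.

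Between cardiac and tail tip fibroblasts, 8 of the 10 genes passed, whereas 33.5% of all genes did. This comparison contains the cardiac pair, whose Hmox1 values chose the list, so nothing is read from that count. Of the 8, 7 were higher in cardiac cells, the direction of 15.5% of all genes, and Nfe2l2 was lower, the direction of 18.0%. Gsr was higher by 1.16 ± 0.15 (adjusted p 0.0013, edgeR), Txnrd1 by 1.17 ± 0.19 (0.0036) and Gclc by 1.44 ± 0.25 (0.0050), and these 3 passed whichever library was left out. The range was 1.10 to 1.17 for Gsr, 0.82 to 1.47 for Txnrd1 and 0.91 to 1.88 for Gclc. Gclm was higher by 1.84 ± 0.45 (0.020), Srxn1 by 1.19 ± 0.25 (0.0099), Osgin1 by 0.85 ± 0.27 (0.049) and Nqo1 by 0.84 ± 0.27 (0.046). Nfe2l2 was lower in cardiac cells, at -0.61 ± 0.15 (0.018).

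The other 5 calls depended on which libraries were in the fit. Some depended on its settings too. With library totals in place of TMM scaling neither Nqo1 nor Osgin1 passed, and in a model of origin alone Nqo1 did not pass. Gclm did not pass without lung Ad-Cre (1.68, adjusted p 0.22) or lung Ad-GFP (1.68, 0.22), and had 0.74 without cardiac Ad-GFP and 2.65 without cardiac Ad-Cre. Srxn1 did not pass without tail tip Ad-GFP (0.86, 0.080), and Nqo1 did not pass without tail tip Ad-GFP (0.39, 0.58) or cardiac Ad-GFP (0.36, 0.13). Osgin1 did not pass without tail tip Ad-Cre (0.50, 0.63) or tail tip Ad-GFP (1.14, 0.14), nor with DESeq2 (0.85, 0.057). Nfe2l2 did not pass without tail tip Ad-Cre (-0.58, 0.27) or tail tip Ad-GFP (-0.71, 0.15). Neither Hmox1 (1.07 ± 0.43, adjusted p 0.099) nor Slc7a11 (1.42 ± 0.68, 0.15) passed, and without the cardiac Ad-GFP library their differences were -0.00 and -0.23. Without cardiac Ad-Cre the difference was 1.90 for Hmox1 and 2.62 for Slc7a11. It was 1.41 and 2.26 without tail tip Ad-Cre, and 0.61 and 0.39 without tail tip Ad-GFP. These fits keep the cardiac Ad-GFP library, whose Hmox1 value was part of the choice, so nothing is read from them.

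Between lung and tail tip fibroblasts, 6 of the 10 passed, whereas 50.6% of all genes did, 22.3% higher in lung and 28.2% lower. The choice of genes did not use these libraries, but the spread in this fit includes the cardiac pair that it did use. Txnrd1 was higher in lung cells by 1.66 ± 0.19 (adjusted p 0.00041, edgeR), Gclc by 1.51 ± 0.25 (0.0022), Gsr by 0.91 ± 0.15 (0.0021) and Gclm by 1.70 ± 0.44 (0.015). Osgin1 (-1.49 ± 0.29, 0.0042) and Nfe2l2 (-0.43 ± 0.15, 0.043) were lower in lung cells. The first 3 passed whichever library was left out, with a range of 1.46 to 1.83 for Txnrd1, 1.14 to 1.83 for Gclc and 0.87 to 0.94 for Gsr. Gclm did not pass without lung Ad-Cre (0.94, 0.52) or lung Ad-GFP (2.26, 0.17), and Osgin1 did not pass without tail tip Ad-GFP (-1.17, 0.066). Nfe2l2 did not pass when any 1 of the 4 lung and tail tip libraries was left out, with differences between -0.50 and -0.37. Hmox1 (-0.17 ± 0.42, adjusted p 0.76), Srxn1 (-0.10 ± 0.24, 0.75), Nqo1 (0.00 ± 0.26, 1.00) and Slc7a11 (0.77 ± 0.63, 0.34) did not pass. In a fit of the 4 lung and tail tip libraries alone 7 of the 10 passed, among them Slc7a11 at 0.87 (adjusted p 5.0e-05). The standard error there was 0.13 for Hmox1 and 0.17 for Slc7a11, against 0.42 and 0.63 with the cardiac pair in the fit.

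**Figure D3:**
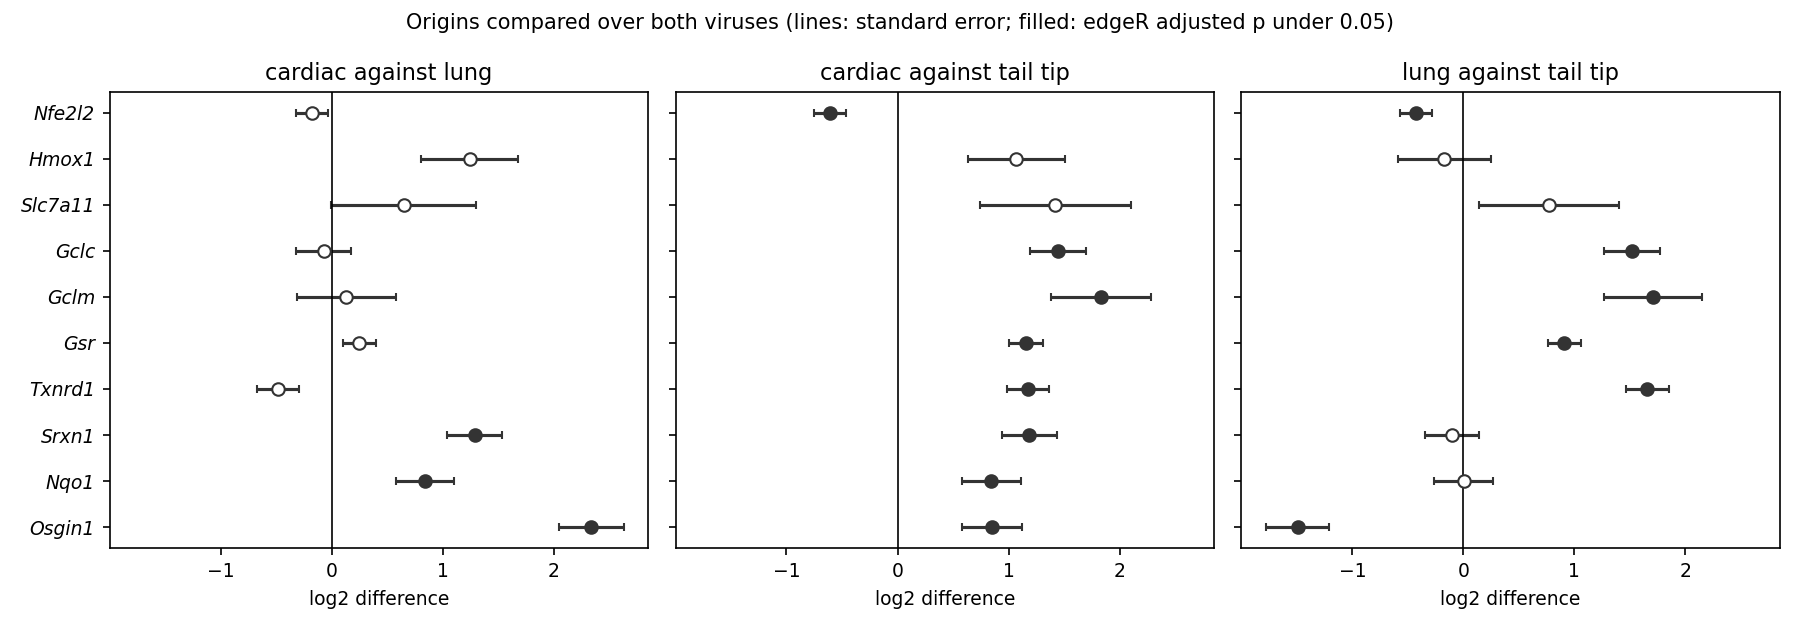
Log2 differences between origins over both viruses, with lines for 1 standard error and filled points where edgeR's adjusted p was under 0.05. Osgin1 is filled in all 3 panels, Hmox1 and Slc7a11 in none, and Txnrd1, Gclc and Gsr are filled in both comparisons with tail tip cells.

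The regulators of NRF2 gave 1 gene past 2-fold in the cardiac pair out of 11, where all genes gave 20.3%. That gene was Sqstm1, the autophagy receptor p62 that competes for KEAP1, at 409 CPM with Ad-Cre and 901 CPM with Ad-GFP (ratio 0.454, 95% interval 0.445 to 0.464). Keap1 was at 31.2 CPM with Ad-Cre and 49.4 CPM with Ad-GFP there, a ratio of 0.632, and Bach1 at 53.0 and 74.1 CPM, a ratio of 0.715. Mafk, a small MAF partner, was at 87.0 CPM with Ad-Cre and 89.5 CPM with Ad-GFP. Between origins Mafk was higher in cardiac than in lung cells by 1.26 ± 0.16 on the log2 scale (adjusted p 0.0011, edgeR) and higher in cardiac than in tail tip cells by 1.77 ± 0.16 (0.00026). Bach1 was higher in cardiac than in lung cells by 1.10 ± 0.19 (0.0041) and lower in lung than in tail tip cells, at -1.38 ± 0.19 (0.00086).

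Other genes of the pathway differed from one another in the cardiac pair. Of 85 listed in 7 groups, 83 were tested, and in the cardiac pair 9 were at least 2-fold lower with Ad-Cre and 2 at least 2-fold higher. That is 13.3% of them, whereas 20.3% of all genes passed this fold. Their median log2 ratio was -0.17. Heme and iron genes gave 3 of 11, all lower. Among these, Ftl1, the ferritin light chain, was at 677 CPM with Ad-Cre and 1612 CPM with Ad-GFP (ratio 0.420). The iron exporter gene Slc40a1 was at 2.75 and 10.7 CPM (0.256), and Abcb6 had few reads, 19 and 44. Ferritin genes have many processed copies, so their counts are uncertain. Glutathione genes gave 4 lower and 1 higher of 20. The higher gene was Ggt5, with 7 reads with Ad-Cre and 1 with Ad-GFP (95% interval of the ratio 0.958 to 336). Of the lower genes, Gstt1 had few reads, 14 and 32. Gsta4, a glutathione transferase gene, was at 2.32 CPM with Ad-Cre and 25.3 CPM with Ad-GFP, a ratio of 0.0919.

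Thioredoxin and peroxiredoxin genes gave 0 of 14 past 2-fold in the cardiac pair. Nearest to that fold was Prdx6, a peroxiredoxin gene, at 194 CPM with Ad-Cre and 383 CPM with Ad-GFP, a ratio of 0.507, whereas Txn1, the thioredoxin gene, was at 244 and 210 CPM. Of the 8 genes that supply NADPH, 1 was past 2-fold. That was Taldo1, the transaldolase gene, at 129 CPM with Ad-Cre and 275 CPM with Ad-GFP, a ratio of 0.471, whereas the malic enzyme gene Me1 was at 162 and 161 CPM. Detoxification genes gave 1 of 13 past 2-fold, and it was higher with Ad-Cre. That was Ptgs1, at 120 CPM with Ad-Cre and 41.7 CPM with Ad-GFP (ratio 2.88, 95% interval 2.71 to 3.07). Superoxide and peroxide enzymes outside the NRF2 set gave 0 of 6. Over the 3 origins, 0 of the 83 genes passed the test of Ad-Cre against Ad-GFP in edgeR. Between origins, 31 were higher and 7 lower in cardiac than in lung cells (45.8% of them, against 38.4% of all genes), 18 higher and 17 lower in cardiac than in tail tip cells (42.2%, against 33.5%), and 20 higher and 38 lower in lung than in tail tip cells (69.9%, against 50.6%).

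**Figure D4:**
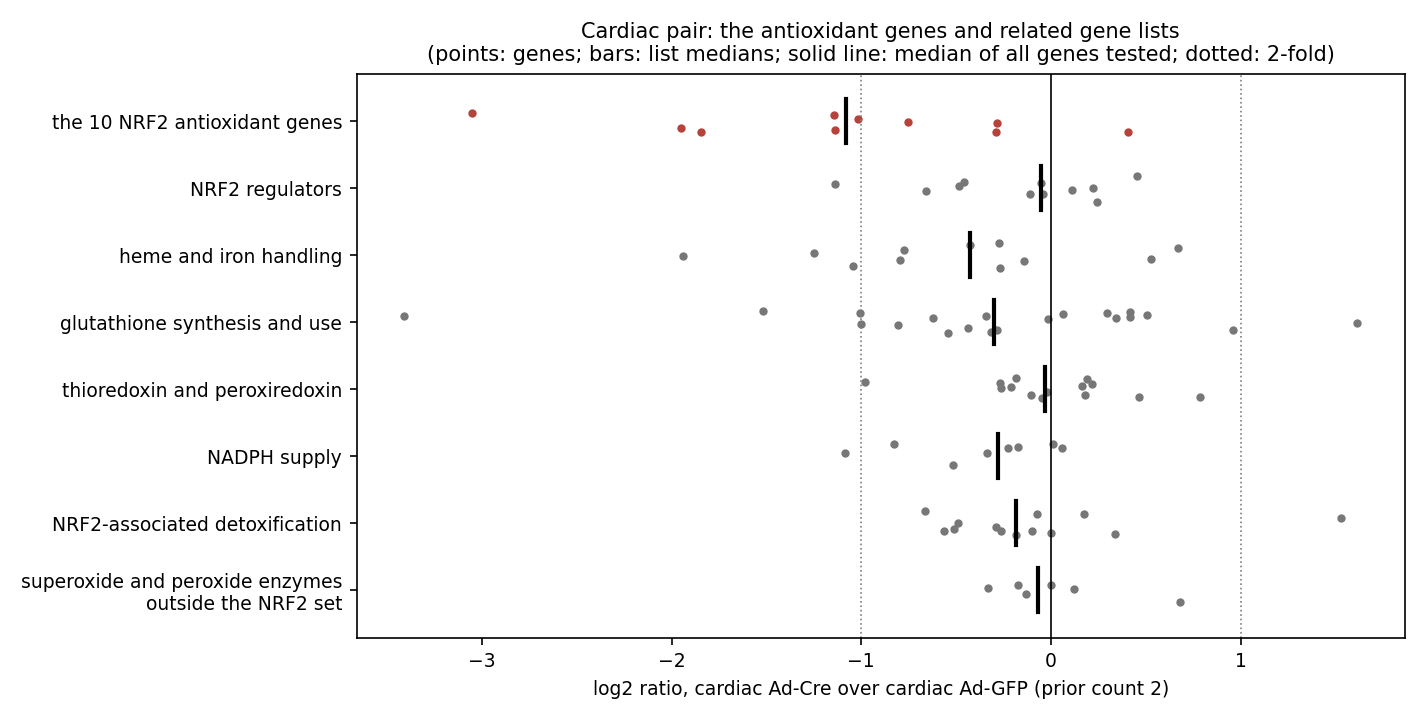
Log2 ratio of Ad-Cre to Ad-GFP in the cardiac pair for the 10 genes and for 7 groups of other pathway genes, with 1 point for each gene and bars at the medians. The median of the 10 genes is -1.08 and that of all genes, drawn as a line, is 0. The 10 genes were listed because of a value of this pair, so their place is a description.

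Hmox1 was also compared with every other gene for the shape of its profile, by Pearson's r of log2 CPM over the 6 libraries. The 5 most alike of 10514 genes ranked were Ptger4 (0.995), Dcakd (0.994), Hspa1b (0.990), Id3 (0.988) and Dnajb1 (0.987). All 5 were highest in the cardiac Ad-GFP library. Hspa1b, an inducible heat shock protein gene with a near-identical neighbour that makes its count uncertain, was at 17.0 CPM with Ad-Cre and 676 CPM with Ad-GFP in cardiac cells and between 12.4 and 32.5 CPM elsewhere. Dnajb1, the gene of an HSP40 co-chaperone, was at 59.7 CPM with Ad-Cre and 123 CPM with Ad-GFP in cardiac cells. Among the antioxidant genes Srxn1 (0.940) and Nqo1 (0.938) were closest to Hmox1, Slc7a11 had 0.839 and Gclm 0.631, and Nfe2l2 had -0.150. The 6 points share the same libraries and 1 of them lies far from the rest for Hmox1, so these values are a description.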

How the data were processed

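The authors deposited raw counts of reads for each Ensembl gene, without normalisation. Per the submitters' processing notes, the mm39 build and STAR 2.0.7 were used, with no role given for either. The sources used here do not name the counting tool, annotation or strand setting, so reads of antisense or near-identical genes may be mixed. The labels name a matrix with another title, so each column was matched to its library by column name alone. Symbols came from GENCODE M21, which matched 51884 of 57180 identifiers, and exon lengths from the same annotation.

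The 10 genes, the lists and the motifs were chosen with earlier results of these data known. The rule for other named genes took, from each list and comparison, the 2 genes called or past 2-fold that had the largest difference and averaged 5 CPM or more, and the 5 genes most like Hmox1. A few more were chosen after their values were seen. These were Slc40a1, Abcb6, Ggt5, Gstt1, Keap1, Txn1, Prdx6 and Me1 in the cardiac pair, and the single macrophage and leukocyte markers. The values of Bach1 and Mafk outside the comparisons that named them were chosen in the same way. Not every gene that the rule took is named here, and Gsk3b, Btrc, Gpx1, Sesn2, Txnip, Idh1 and Cat are among those left out.

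Tests used edgeR 4.0.16 in R 4.3.3 with TMM factors (0.964 to 1.03), filterByExpr with a minimum count of 10 and robust quasi-likelihood F-tests, two-sided, in an additive model of origin and virus with 2 residual degrees of freedom. Benjamini-Hochberg adjustment ran over all 18143 genes, with a threshold of 0.05. The code was tested on simulated data. Nothing says that libraries came from separate animals, so p-values measure only the spread between these libraries. Log2 ratios within a pair used a prior count of 2, with exact conditional binomial intervals. Alternatives were DESeq2 1.42.0, its size factors, library totals, no filter, origin alone, other folds and prior counts, and leaving out each library.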

Additional observations from a re-analysis of the deposited data

Results flagged for a closer look

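Gclm ran in opposite directions in the origins. Its ratio of Ad-Cre to Ad-GFP was 1.19 in lung cells, against 0.278 in cardiac cells and 0.838 in tail tip cells. With 1 library on each side of a ratio, the difference between origins was not tested.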

How the results depend on the processing

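No paired analysis was possible because each group holds 1 library, other than the pairing by origin already in the test of Ad-Cre against Ad-GFP. Between cardiac and lung cells 3 of the 10 genes passed in the model reported, 6 with no filter, and 2 to 6 when a library was left out. Leaving out a library gave 4 to 10 between cardiac and tail tip cells, 4 to 7 between lung and tail tip cells and 0 to 2 for Ad-Cre against Ad-GFP over 3 origins, where no filter gave 3. In the test over lung and tail tip cells, leaving out a library leaves no residual degrees of freedom, so no value was made. Differences that changed sign when a library was left out ran from -0.58 to 0.37 (Gclc), -0.91 to 0.98 (Gclm) and -1.08 to 1.76 (Slc7a11) between cardiac and lung cells, from -0.0022 to 1.90 (Hmox1) and -0.23 to 2.62 (Slc7a11) between cardiac and tail tip cells, from -0.79 to 0.28 (Hmox1), -0.40 to 0.45 (Nqo1) and -0.37 to 0.20 (Srxn1) between lung and tail tip cells, and from -1.06 to 0.0086 for Gclm over 3 origins. Values near 0 also changed sign: Gclc between cardiac and lung cells with origin alone (0.0022), Nqo1 between lung and tail tip cells with library totals (-0.055) and no filter (-0.016), and Gclm for Ad-Cre over lung and tail tip cells with DESeq2 (-0.012), DESeq2 size factors (-0.0028), library totals (-0.0023) and no filter (-0.029). The cause was not tested. Over all genes, Ad-Cre against Ad-GFP called 0, against 4 with DESeq2, 141 with no filter and 11 to 109 without a library; over lung and tail tip cells it called 3, against 1 with DESeq2 and 13 with no filter. Between cardiac and tail tip cells 6077 were called, against 3110 to 9208 without a library, and between lung and tail tip cells 9175, against 5995 without tail tip Ad-GFP. The counts past 2-fold in the pairs did not move by over 1.5 times under any alternative tried.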

Other observations

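Of the 83 other pathway genes tested, several separated the origins by larger differences than any of the 10 did. Those given here were named because their differences were among the largest of their lists, so nothing is read from that comparison. Gpx3, the secreted glutathione peroxidase, was higher in cardiac than in lung cells by 7.81 ± 0.45 on the log2 scale (adjusted p 4.2e-05, edgeR). It was lower in lung than in tail tip cells, at -7.68 ± 0.45 (2.0e-05). In lung cells it had only 6 reads with Ad-Cre and 14 with Ad-GFP, so the size of both differences is uncertain. Ephx1, the microsomal epoxide hydrolase, was at 202 and 160 CPM with Ad-Cre and Ad-GFP in cardiac cells, 7.33 and 5.11 CPM in lung cells, and 218 and 188 CPM in tail tip cells. Aldh1a1, a retinaldehyde dehydrogenase gene, was at 53.5 and 79.1 CPM in cardiac cells, 0.312 and 0.172 CPM in lung cells, and 3.38 and 2.30 CPM in tail tip cells. Its lung values rest on only 8 and 5 reads. Sod3, the extracellular superoxide dismutase, was at 21.3 and 13.3 CPM in cardiac cells, 29.6 and 14.6 CPM in lung cells, and 459 and 436 CPM in tail tip cells.

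Hmox2, the heme oxygenase gene that is not induced by NRF2, was highest in tail tip cells. It was at 23.0 and 27.8 CPM in cardiac cells with Ad-Cre and Ad-GFP, 19.6 and 19.7 CPM in lung cells, and 54.6 and 54.1 CPM in tail tip cells. It was lower in cardiac than in tail tip cells, at -1.10 on the log2 scale (adjusted p 0.0026, edgeR), and lower in lung than in tail tip cells, at -1.47 (0.00037).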
